A study of Pseudotsuga menziesii with 26 samples.

Results

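The 200 transcripts described here were the most abundant in needles of Douglas-fir seedlings kept in filtered air, once the transcripts named next had been set aside. They were chosen from the deposited raw counts of 173882 transcripts. Identifiers up to psme_t000300 were set aside, as was every transcript that took over 1% of the counts of any library. Each library was then rescaled to counts per 1000000 (CPM) of what remained, and the 200 transcripts with the highest mean CPM over the 6 Air Control libraries were taken from the 173662 that were left. The 1% limit set aside 23 transcripts, of which 21 had identifiers above psme_t000300. Together these 23 held a large part of every library, from 33.6% of the counts in Air Control replicate 5 to 95.8% in DE replicate 4. The Air Control levels therefore chose the members, and they are given below as a description, with no test. The limit also read every other library, but the order of the members did not use the exhaust libraries. A CPM here is a share of the counts that remained. In bulk needle RNA, fewer cells of a type and less RNA per cell cannot be told apart.

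Poly(A) RNA was sequenced from needles of the previous year's growth, taken from the lateral stem, in 26 seedlings that shared a parent. The Air Control group (n = 6) received air cleaned with charcoal, Purafil and HEPA filters. The DE group (n = 7) received diesel exhaust, the DECe group (n = 7) received exhaust of diesel fuel with engineered CeO2 nanoparticles as a catalyst, and the DECe Gas Phase group (n = 6) received DECe exhaust after a HEPA filter. Exposure lasted 6 h a day on 5 days a week for 2 weeks in December, when needle growth was dormant. All groups had 16 h of light a day, at 280 umol per s per m2. Each atmosphere had 1 chamber of 984 L, so an atmosphere cannot be told apart from its chamber.

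Needles of an evergreen conifer live through several winters and stay green during dormancy. In mature leaves, a large part of the messenger RNA pool comes from few genes, many of them encoding proteins of photosynthesis and of stress protection. The summed share of such messengers describes how the pool is divided. Which of these functions the 200 transcripts serve was not analysed here, because the files give identifiers without gene names, so each member is described by its identifier, its length and its values.

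The libraries differed widely in depth and in the part of their counts that the rule left. Total counts ran from 2467403 to 60457187, and the counts left by the rule ran from 146265 to 33262997. With a division at 1000000 counts left, which was known from earlier results of these data, 15 libraries are called broad and 11 narrow. The rule left 17.0% to 65.8% of the total counts in broad libraries and 4.18% to 15.1% in narrow ones. The classes therefore differ in composition as well as in depth. All 6 Air Control libraries were broad. DE had 6 narrow libraries among its 7, DECe had 3 among its 7, and DECe Gas Phase had 2 among its 6. Air Control replicate 14 and DECe Gas Phase replicate 4 stood apart in another way, with 34.9% and 45.6% of their counts in the identifiers up to psme_t000300, against 3.47% to 16.0% in the other libraries. Values of the named members that these libraries move by over 1.5 times are also given without them.

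In filtered air the 200 members, 0.115% of all transcripts, held a large part of the remaining messenger pool. Their summed share was 38.6% ± 5.96 of the counts left (SD, n = 6), with 32.2% in the lowest and 46.7% in the highest library. The DECe Gas Phase needles had 33.8% ± 5.33 (SD, n = 6), the DECe needles 27.5% ± 8.45 (SD, n = 7) and the DE needles 14.4% ± 7.88 (SD, n = 7). In DE the lowest, median and highest shares were 7.86%, 10.4% and 28.4%, so every DE library lay below every Air Control library. The DECe libraries ran from 14.2% to 33.0%, with a median of 32.4%, and the DECe Gas Phase libraries from 24.9% to 39.1%, with a median of 34.5%. Both groups overlapped with air. Of all counts, before anything was set aside, the members held 7.57% to 25.5% in the Air Control libraries.

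**Figure D1:**
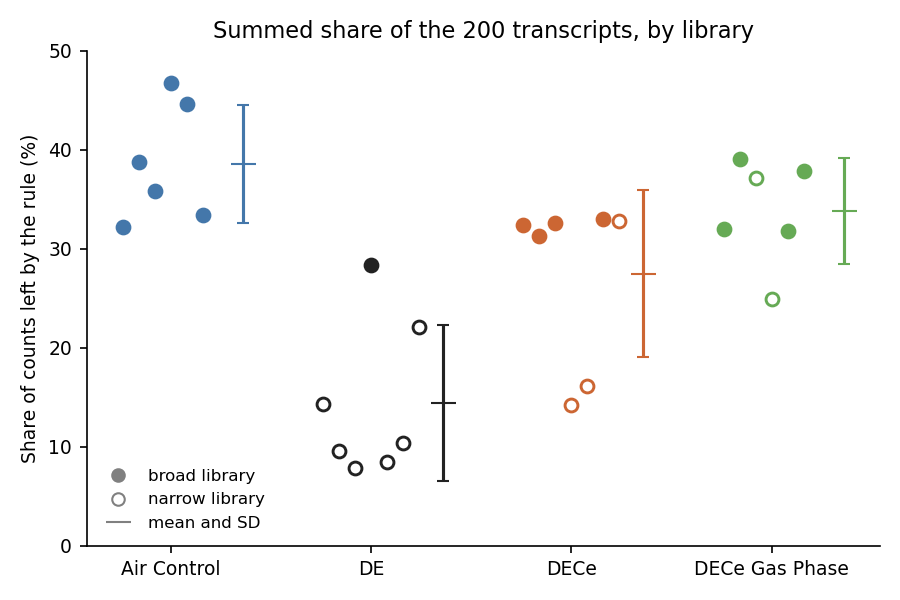
Summed share of the 200 transcripts in the counts left by the rule (vertical axis, %), with 1 point per library in the 4 groups and the mean with its SD beside each group. All 6 Air Control libraries lie between 32.2% and 46.7%, and the 6 narrow DE libraries (open circles) between 7.86% and 22.1%.

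Library class moved with this share. The broad libraries ran from 28.4% to 46.7% and the narrow ones from 7.86% to 37.1%. The single broad DE library, replicate 5, held 28.4%, and the 6 narrow DE libraries held 12.1% ± 5.41 (SD, n = 6). Within DECe the 4 broad libraries held 31.3% to 33.0%, while the 3 narrow ones were split, at 14.2%, 16.1% and 32.8%. In DE, where 1 library was broad, class and atmosphere cannot be told apart.

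The members also kept or lost their place in the order of abundance. When the rule's ranking was applied to each exhaust group in turn, the resulting list of 200 transcripts held 166 of the members (83.0%) in DECe Gas Phase, 153 (76.5%) in DECe and 78 (39.0%) in DE. The 4 lists had 77 transcripts in common. Another 27 members were in none of the 3 exhaust lists. Library class moved with this overlap too. Among the 200 highest transcripts of a single library, 136 were members in the broad DE replicate 5 and 29 to 130 in the narrow DE libraries. The number was 85 to 141 in the narrow DECe libraries and 163 to 179 in the Air Control libraries, which chose the members. Across the 200 members, which are not independent replicates, the Spearman correlation of group means with air was 0.687 for DE, 0.839 for DECe and 0.836 for DECe Gas Phase, and between DECe and DECe Gas Phase it was 0.897.

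Lengths of the members implied by the deposited RPKM values ran from 413 to 7389 nt with a median of 1807 nt, against a median of 2184.5 nt over the 10634 transcripts at 10 CPM or more in air. Mean levels in air ran from 644 to 13534 CPM with a median of 1267 CPM. Per kilobase of transcript, mean levels ran from 122 to 15416 CPM per kb, with a median of 710 CPM per kb. At the edge of the list, psme_t025070 (last but one) had a mean of 651 CPM and psme_t079721 (last) 644 CPM. Just outside lay psme_t020445 at 636 CPM and psme_t005350 at 634 CPM, and the SD between air seedlings was 130 to 347 CPM for these 4 transcripts.

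The most abundant member was psme_t040843 (1147 nt). Its lowest, median and highest levels were 10136, 12786 and 18958 CPM in Air Control, 571, 1391 and 6010 CPM in DE, 3607, 11811 and 12812 CPM in DECe, and 5082, 9803 and 18427 CPM in DECe Gas Phase. It was the highest member in 5 of 6 Air Control libraries, and every DE library lay below every Air Control library. The next, psme_t022813 (1837 nt), was at 9038, 11607 and 16194 CPM in air and at 712, 1221 and 7514 CPM in DE, again without overlap. In DECe it was at 1815, 8193 and 9362 CPM and in DECe Gas Phase at 5866, 7679 and 10818 CPM.

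Seedlings in air did not all share the same leading transcripts. The 413 nt transcript psme_t128974, the shortest member, was at 2976, 4321 and 17355 CPM in air (lowest, median and highest), and its highest value made it the leading member of Air Control replicate 11. Per kilobase its mean in air was 15416 ± 13132 CPM per kb (SD, n = 6), that of psme_t040843 was 11799 ± 2731 and that of psme_t100466 (505 nt) was 9673 ± 5825 CPM per kb (SD, n = 6 each), so that their spreads overlapped. The order of the first 2 turned with replicate 11, without which the mean of psme_t128974 was 10094 ± 1790 and that of psme_t040843 12019 ± 2993 CPM per kb (SD, n = 5 each). A steadier level was seen for psme_t032037 (1423 nt), at 6230, 6619 and 7940 CPM in air. That transcript was at 473, 888 and 5285 CPM in DE, so its groups did not overlap.

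The other 6 of the leading 10 were psme_t020258 (1982 nt), psme_t015147 (2312 nt), psme_t028970 (1545 nt), psme_t054758 (872 nt), psme_t030536 (1480 nt) and psme_t055950 (853 nt). Their mean levels in air were between 5128 and 8038 CPM, and in DE between 1328 and 2469 CPM. In DECe they were between 4199 and 5330 CPM and in DECe Gas Phase between 4901 and 7913 CPM. All 10 had their lowest group mean in DE. The last of them, psme_t055950, was higher on average in DECe Gas Phase (7422 ± 5823 CPM, SD, n = 6) than in air (5128 ± 2378 CPM, SD, n = 6), with DECe Gas Phase replicate 3 at 17560 CPM.

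**Figure D2:**
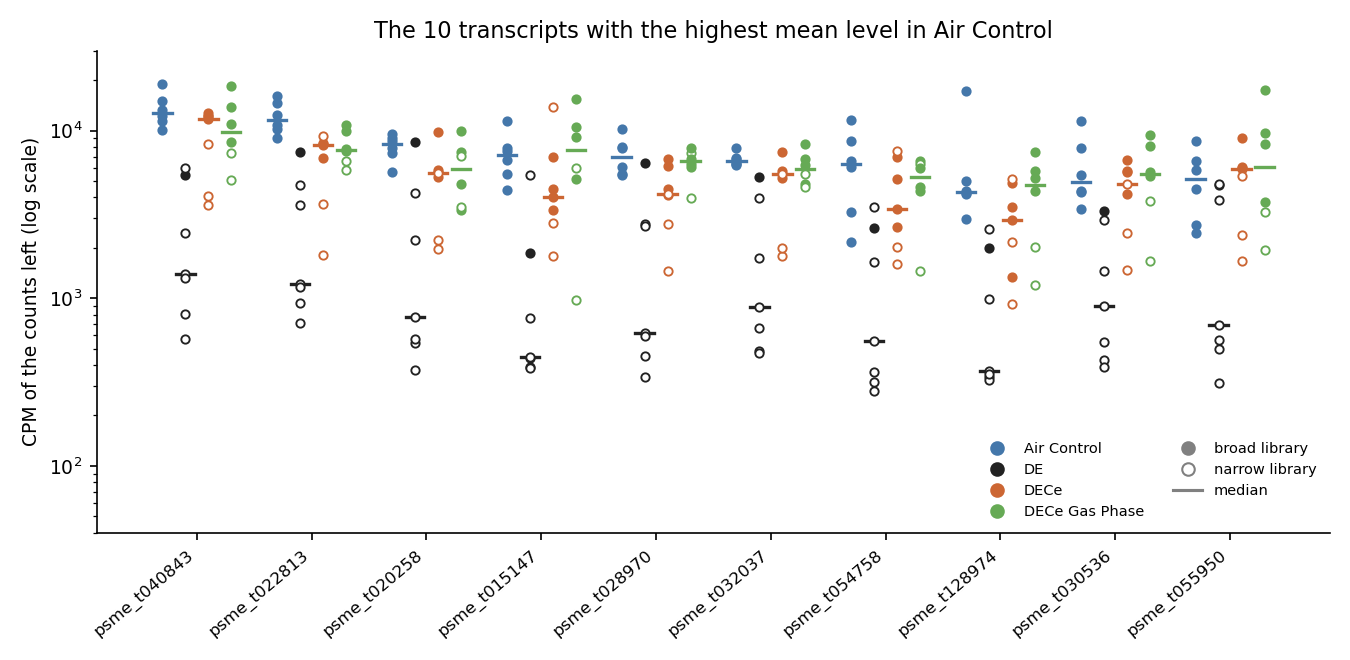
Level of the 10 transcripts with the highest mean in Air Control (vertical axis, CPM of the counts left, log scale), with 1 point per library, open for narrow libraries, and a bar at each group's median. The median of psme_t040843 is 12786 CPM in Air Control and 1391 CPM in DE.

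Set against air, most members had lower means in the exhaust groups. This is a description, since the Air Control values chose the members. The mean was lower than in air for 186 of 200 members in DE, 173 in DECe and 150 in DECe Gas Phase. Over the 12906 transcripts with a mean of 10 CPM or more in any group, the shares with a lower mean were 86.1%, 62.1% and 55.1%, and nothing is read from the difference. The median ratio to air was 0.260 in DE, 0.686 in DECe and 0.829 in DECe Gas Phase over the members, and 0.364, 0.875 and 0.947 over those 12906 transcripts. Every DE library lay below every Air Control library for 74 of the 200 members, against 10.2% of the 12906. The same held for 6 members in DECe, against 0.899%, and for 2 in DECe Gas Phase, against 0.55%. In 0 members did a whole exhaust group lie above air, against 0.217% in DE, 0.209% in DECe and 0.24% in DECe Gas Phase. With the broad libraries alone, the median log2 ratio to air was -0.71 in DE (1 library), -0.27 in DECe and -0.19 in DECe Gas Phase, against -1.94, -0.54 and -0.27 with all libraries.

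Replicates were less alike in DE than elsewhere. The coefficient of variation of a member had a median of 34.4% over the 6 Air Control libraries, 44.4% in DECe Gas Phase, 50.1% in DECe and 98.8% in DE. With the 4 broad libraries of each alone it was 29.4% in DECe and 33.1% in DECe Gas Phase. In DE replicate 5, the broad library, the median ratio of the members to their air mean was 0.613, while in the mean of the 6 narrow DE libraries it was 0.178. In that narrow mean, 152 of 200 members were under 0.25 of their air level and 14 were above air.

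Nearly all members were counted in every library, and the part of depth in their levels was not tested. Of the 200, 198 had at least 1 count in each of the 26 libraries. The exceptions were psme_t011946 (2585 nt), with 0 counts in DE replicates 4 and 8, and psme_t017896 (2126 nt), with 0 counts in DE replicate 8. A floor of 3 counts stood at 12.4 CPM in DE replicate 4 and at 20.5 CPM in DE replicate 8, for counting error only. The lowest Air Control levels of these transcripts were 180 and 397 CPM. In those DE libraries the typical member was still counted few times, with a median of 22 counts in replicate 4 and 17 in replicate 8, against 9681 to 23694 in Air Control libraries.

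Average linkage on 1 minus the Pearson correlation of log2(CPM + 1) over the 26 libraries, cut at 0.5, gave a set of 178 members, a set of 8, a set of 5 and 9 members that stood alone. This grouping was made on the values it describes and carries no test, and the libraries share differences of depth and composition. The 178 included all 10 leading transcripts. Their summed share was 35.0% ± 5.04 of the counts left in air (SD, n = 6), 28.7% ± 6.48 in DECe Gas Phase (SD, n = 6), 24.0% ± 9.01 in DECe (SD, n = 7) and 9.33% ± 8.91 in DE (SD, n = 7). In the broad libraries the share was 25.5% to 43.3% and in the narrow ones 2.59% to 28.7%.

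**Figure D3:**
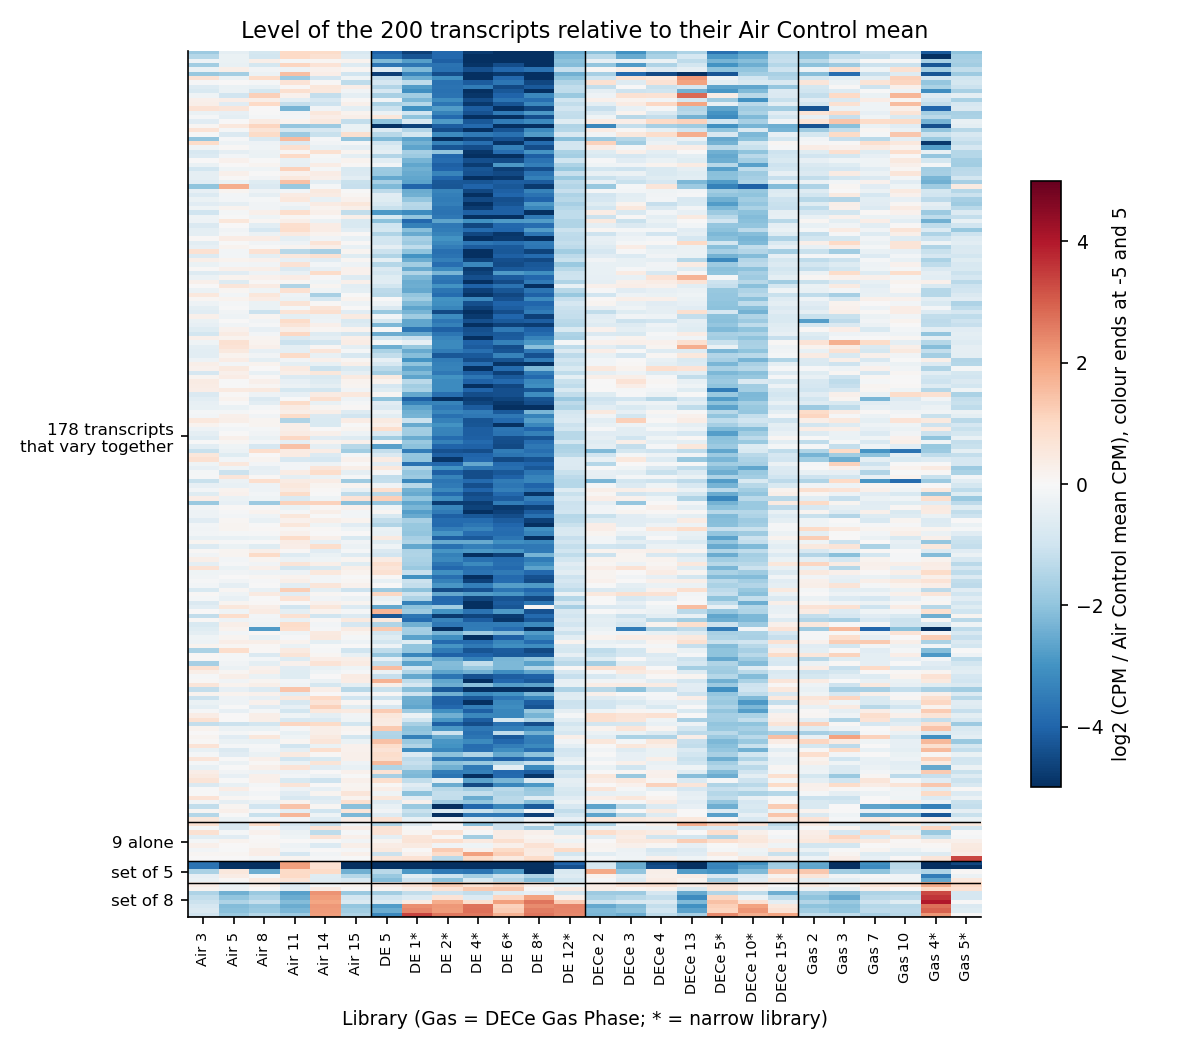
Level of each of the 200 transcripts (rows, in the sets that vary together) in each of the 26 libraries (columns, broad before narrow within a group), as log2 of CPM over the Air Control mean. The set of 178 is low in the narrow DE libraries, where its median ratio to air falls to 0.0548. The set of 8 has a median ratio to air of 1.47 to 4.55 in these libraries, 4.24 in Air Control 14 and 7.14 in DECe Gas Phase 4.

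The set of 8 ran the other way. It comprised psme_t000568, psme_t006192, psme_t000326, psme_t020787, psme_t006308, psme_t082518, psme_t000966 and psme_t017886, with lengths from 597 to 7389 nt and a median of 3324.5 nt. Its summed share was 1.35% ± 1.51 of the counts left in air (SD, n = 6) and 3.14% ± 1.20 in DE (SD, n = 7). The DECe libraries held 1.44% ± 0.841 (SD, n = 7), and those of DECe Gas Phase held 2.77% ± 4.36 (SD, n = 6). The highest shares were 11.6% in DECe Gas Phase replicate 4 and, within air, 4.41% in Air Control replicate 14. The other 5 Air Control libraries ran from 0.462% to 0.949%, and without replicate 4 the DECe Gas Phase mean was 0.991% ± 0.312 (SD, n = 5). In narrow libraries the mean level of these transcripts was 1.39 to 8.72 times that in broad ones. Without DECe Gas Phase replicate 4 the ratio of psme_t000966 turned from 2.26 to 0.811, that of psme_t000568 went from 3.94 to 2.32, and the other 6 were at 1.25 to 8.81. With Air Control replicate 14 left out as well, the 8 ratios ran from 1.23 to 15.8.

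Membership of 4 of these 8 rested on Air Control replicate 14. Without that library psme_t006308, psme_t082518, psme_t000966 and psme_t017886 left the list of 200, with 3 others. The 597 nt transcript psme_t082518 had 257 to 484 CPM in the other 5 Air Control libraries and 3958 CPM in replicate 14. In DE its lowest, median and highest levels were 100, 5812 and 9801 CPM, and the lowest was the broad replicate 5. In DECe it was at 169, 394 and 4820 CPM and in DECe Gas Phase at 309, 388 and 4283 CPM, the upper values being those of narrow libraries. Its ratio of the mean over 20 exhaust libraries to air, 2.94, was the highest of all members, followed by 2.47 for psme_t017886, 2.33 for psme_t006308, 2.32 for psme_t000326 and 1.63 for psme_t019759. These ratios depended on Air Control replicate 14. Without it they were 8.23, 7.63, 7.94, 5.56 and 1.61, and psme_t000568 at 4.16 and psme_t000966 at 3.57 came before psme_t019759. Without DECe Gas Phase replicate 4 as well, the last 2 were at 2.56 and 1.64, and psme_t000326 was at 3.80.

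The longest member, psme_t000326 (7389 nt), was at 457, 949 and 8114 CPM in air and at 1268, 4979 and 13182 CPM in DE. It was at 454, 1249 and 5781 CPM in DECe and at 567, 1189 and 33693 CPM in DECe Gas Phase. The 6454 nt transcript psme_t000568 followed it closely, with 44566 CPM in DECe Gas Phase replicate 4, 15744 CPM in Air Control replicate 14 and 14802 CPM in DE replicate 8. The highest coefficients of variation over the 20 exhaust libraries were 243% for psme_t000966 (5685 nt), 184% for psme_t000568 and 157% for psme_t000326. They rested on DECe Gas Phase replicate 4, without which they were 38.8%, 107% and 103%, and the highest was then 145% for psme_t021443.

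**Figure D4:**
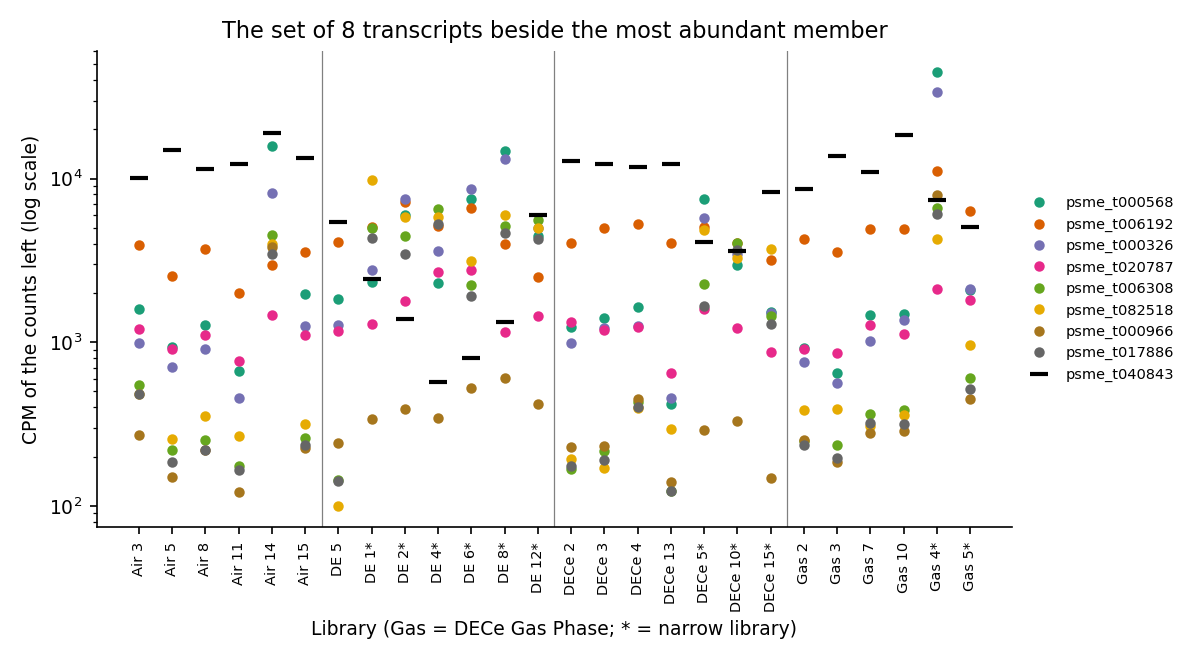
Level of the set of 8 transcripts (points, CPM of the counts left, log scale) in each of the 26 libraries, with the most abundant member, psme_t040843, as a dash. In DECe Gas Phase 4, psme_t000568 reaches 44566 CPM and psme_t040843 is at 7391 CPM.

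Pairs of members tracked each other closely. Over the 26 libraries psme_t006308 (3315 nt) and psme_t017886 (2127 nt) had a Pearson correlation of 0.999 on log2(CPM + 1), and their ratio stayed between 0.967 and 1.36. The ratio of psme_t077105 (634 nt) to psme_t079496 (617 nt) had a median of 1.000 in broad libraries, with a range of 0.909 to 1.02. That of psme_t046886 (1010 nt) to psme_t007245 (3157 nt) had a median of 0.999 in broad libraries, with a range of 0.900 to 1.09. These pairs were picked for their correlation, and near-identical copies can share reads. Whether these do was not analysed here, so the split of counts within a pair is uncertain.

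The pair psme_t046886 and psme_t007245 had the lowest ratios of exhaust to air among the members, both 0.11. In air psme_t046886 was at 10.9, 40.4 and 3131 CPM (lowest, median and highest), with 3131 CPM in replicate 11 and 1284 CPM in replicate 14 and at most 58.4 CPM in the other 4. It was at 6.56, 10.5 and 47.6 CPM in DE, at 12.1, 94.9 and 411 CPM in DECe and at 1.38, 61.8 and 288 CPM in DECe Gas Phase. The groups overlapped, and the median in DECe lay above that in air. Without Air Control replicate 11 both transcripts left the list of 200. The next lowest ratios were 0.16 for psme_t011946, 0.18 for psme_t049278 (963 nt) and 0.22 for psme_t044559 (1059 nt). Without Air Control replicate 11 these 5 ratios, in the order named, were 0.29, 0.30, 0.26, 0.22 and 0.28, and psme_t057554 was lowest at 0.21. In air psme_t049278 was at 417, 976 and 2949 CPM, and in DE at 13.7, 57.6 and 262 CPM, without overlap. It was at 111, 345 and 508 CPM in DECe and at 80.3, 381 and 662 CPM in DECe Gas Phase, both overlapping with air.

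Some members varied little between the exhaust libraries. The lowest coefficient of variation over the 20 exhaust libraries was that of psme_t038506 (1212 nt), at 24.3%, and its 26 values ran from 612 to 1655 CPM. Its medians were 699 CPM in air, 952 CPM in DE, 1018 CPM in DECe and 909 CPM in DECe Gas Phase. Its mean over the 20 exhaust libraries was 1.41 times that in air. Next came psme_t015956 (2256 nt) at 26.2%, with medians of 830, 954, 836 and 805 CPM in the same order, and psme_t009667 (2824 nt) at 33.5%, with 1660, 1393, 2413 and 2057 CPM. Over all 200 members this coefficient had a median of 72.4%. In air the steadiest member was psme_t019759 (2011 nt), at 1855 to 2195 CPM, a coefficient of 5.96%. In DE it was at 794, 3043 and 3849 CPM, and in DECe Gas Phase replicate 5 it reached 20219 CPM.

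The exhaust groups were not used to order the members, so they were compared by test. The air libraries that ordered the members were all broad, however. In the set of 178, mean levels in narrow libraries were 0.195 to 0.684 times those in broad ones. DE had mostly narrow libraries, so the direction of its comparisons is not independent of the choice of members. The part of library class in these comparisons was not tested. The first comparison set the exhaust of CeO2 fuel against that of plain diesel fuel. With edgeR's quasi-likelihood test on all 27219 transcripts that passed the filter on low counts, scaled to the counts left by the rule, 19 of the 200 members passed a Benjamini-Hochberg adjusted p of 0.05, all 19 higher in DECe than in DE. In the background 0.849% of the tested transcripts were called in either direction, 0.76% higher and 0.0882% lower. Of the members, 184 had a positive log2 fold change and 16 a negative one, against 81.4% positive over all tested transcripts. The median log2 fold change was 1.38 over the members and 0.82 over all tested transcripts.

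Of the 4 members with the largest rise, psme_t021443 (1914 nt) was at 41.4, 130 and 389 CPM in DE and at 463, 1582 and 8663 CPM in DECe. Every DECe library lay above every DE library, and the fitted log2 difference was 3.53 (SE 0.64, adjusted p = 0.00748 by edgeR). The level of psme_t022398 (1859 nt) was 4.14, 83.1 and 302 CPM in DE and 256, 572 and 3165 CPM in DECe, a fitted log2 difference of 3.16 (SE 0.66, adjusted p = 0.0152 by edgeR), with an overlap of the groups. Likewise, psme_t023154 (1820 nt) was at 24.8, 75.2 and 301 CPM in DE and at 271, 529 and 2700 CPM in DECe, a fitted log2 difference of 2.79 (SE 0.63, adjusted p = 0.0261 by edgeR), again with an overlap. The last, psme_t004295 (3764 nt), was at 47.9, 90.9 and 624 CPM in DE and at 633, 785 and 4485 CPM in DECe, without overlap, a fitted log2 difference of 2.64 (SE 0.61, adjusted p = 0.0261 by edgeR). For all 4 the highest DECe value was that of replicate 13, a broad library.

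The number of calls rested on single libraries and on the scaling. Leaving out any 1 of the 14 libraries moved it by over 1.5 times, from 19 to as few as 0 without DECe replicate 13 and as many as 163 without DE replicate 5, the broad DE library. In the latter fit 37.6% of all tested transcripts were called, and the members' median log2 fold change of 1.92 was no higher than that of all tested transcripts, 1.95. It was 1 without DE replicate 2 or 6, 2 without DE 4, 3 without DE 8, 10 without DE 1 and 59 without DE 12. It was 5, 9, 10 and 12 without DECe replicate 4, 15, 2 and 3, and 44 and 50 without the narrow DECe replicates 5 and 10. In the fits with 59, 44 and 50 members called, 1.84%, 2.23% and 3.00% of all tested transcripts were called. In those with 0 to 12 members called, this share ran from 0.0112% to 0.672%. With all libraries 131 members had an unadjusted p under 0.05, against 19.6% of the tested transcripts. The scaling also moved the median of all tested transcripts, from 0.82 to 0.41 with TMM factors and to 0.08 with DESeq2's size factors. These size factors were used within edgeR. The members' median lay above that of all tested transcripts by 0.56, 0.46 and 0.40 in the order given. With TMM factors 5 members were called higher and 1 lower, and with DESeq2's size factors 5 and 7. In DESeq2's own fit the median log2 fold change was -0.16 over all tested transcripts and 0.47 over the members. Library class was unequal between the groups, with 6 of 7 narrow libraries in DE and 3 of 7 in DECe. In the narrow libraries alone (3 against 6) 0 members passed (edgeR), against 0.0133% of all tested transcripts. Of the 200, 184 were again higher in DECe, with a median log2 fold change of 1.24 against 0.99 over all tested transcripts, a difference of 0.25. With broad libraries only, 1 DE library remains, and 130 of 200 members were higher in DECe, with a median of 0.35 against 0.01 over all tested transcripts.

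The second comparison set plain diesel exhaust against the filtered exhaust of the CeO2 fuel, which differ in fuel and in particles, and it used the same DE libraries as the first. Of the 200 members, 52 passed (edgeR adjusted p between 0.0259 and 0.0499), all lower in DE, against 2.01% of the tested transcripts called in either direction, 1.71% lower and 0.301% higher. The log2 fold change was negative for 191 members, against 81.9% of all tested transcripts, with a median of -1.68 against -0.88. The largest falls were again led by psme_t021443, at 532, 932 and 3836 CPM in DECe Gas Phase, with a fitted log2 difference of -2.93 (SE 0.64, adjusted p = 0.0259 by edgeR), with every DE library below every DECe Gas Phase library. The 467 nt transcript psme_t110361 went from 274, 722 and 1270 CPM in DECe Gas Phase to 34.2, 57.6 and 335 CPM in DE, a fitted log2 difference of -2.66 (SE 0.69, adjusted p = 0.0371 by edgeR). The level of psme_t030153 (1497 nt) went from 359, 994 and 1946 CPM to 45.9, 88.9 and 493 CPM, a fitted log2 difference of -2.55 (SE 0.59, adjusted p = 0.0306 by edgeR). For psme_t023154, at 296, 496 and 2042 CPM in DECe Gas Phase, it was -2.52 ± 0.63 (SE, edgeR adjusted p = 0.0329). The groups overlapped for these last 3 transcripts.

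Of the 10 most abundant members, 4 were among these 52. They were psme_t040843 (log2 fold change -2.06 ± 0.52, SE, edgeR adjusted p = 0.0345), psme_t015147 (-2.51 ± 0.59, adjusted p = 0.0306), psme_t128974 (-2.11 ± 0.57, adjusted p = 0.0400) and psme_t030536 (adjusted p = 0.0398). The other 6 had log2 fold changes of -1.29 to -1.88 and adjusted p between 0.0550 and 0.149 (edgeR). This count also rested on few libraries. It was 0 without DE replicate 2, 4, 6 or 8 (edgeR, where 144 members had an unadjusted p under 0.05 with all libraries). It was 1 without DECe Gas Phase replicate 10, 2 without DE replicate 1 or DECe Gas Phase replicate 3, and 13 without DECe Gas Phase replicate 2 or 7. It was 79 without DE replicate 12, 86 without DECe Gas Phase replicate 5 and 167 without DE replicate 5. In these 3 fits 3.13%, 7.64% and 42.3% of all tested transcripts were called. In the last the members' median was -2.19 against -2.05 over all tested transcripts. In the fits with 0 to 13 members called, the share over all tested transcripts ran from 0.0404% to 0.518%. With TMM factors 4 members were called higher and 27 lower, and with DESeq2's size factors 8 and 11. In DESeq2's own fit the median log2 fold change was 0.11 over all tested transcripts and -0.75 over the members. In the narrow libraries alone (6 against 2) 0 members passed (edgeR), against 0.239% of all tested transcripts. The median log2 fold change there was -1.72 over the members and -1.45 over all tested transcripts. In the broad libraries alone (1 against 4) these medians were -0.48 and 0.08.

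The third comparison asked what the particles of the CeO2 exhaust add, with DECe set against DECe Gas Phase. None of the 200 members passed (edgeR, 0 called in each direction, 2 at an unadjusted p under 0.05), and DESeq2 and limma-voom also called 0 members. In the background 0 of 27219 transcripts, 0.0%, were called and 2.84% had an unadjusted p under 0.05. The median log2 fold change was -0.22 over the members, with 149 of 200 negative, and -0.04 over all tested transcripts. In the broad libraries alone (4 against 4) it was -0.03 over the members, with 95 positive and 105 negative, and 0.12 over all tested transcripts. The smallest p-values were those of psme_t000966, psme_t044298 and psme_t019759. The level of psme_t044298 (1066 nt) was 213, 719 and 1001 CPM in DECe and 496, 1026 and 3372 CPM in DECe Gas Phase, which overlap, with a fitted log2 difference of -1.17 (SE 0.61, adjusted p = 0.999974 by edgeR). The highest DECe Gas Phase value of psme_t044298 was that of replicate 4, a narrow library. Without that library, its mean in narrow libraries went from 0.507 to 0.259 times that in broad ones. The means of both others in DECe Gas Phase rested on 1 library each. These were replicate 4 for psme_t000966, at 7949 CPM against at most 453 CPM in DECe, and replicate 5 for psme_t019759, at 20219 CPM against at most 2796 CPM in DECe. Absence of a call does not show that the groups were alike.

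**Figure D5:**
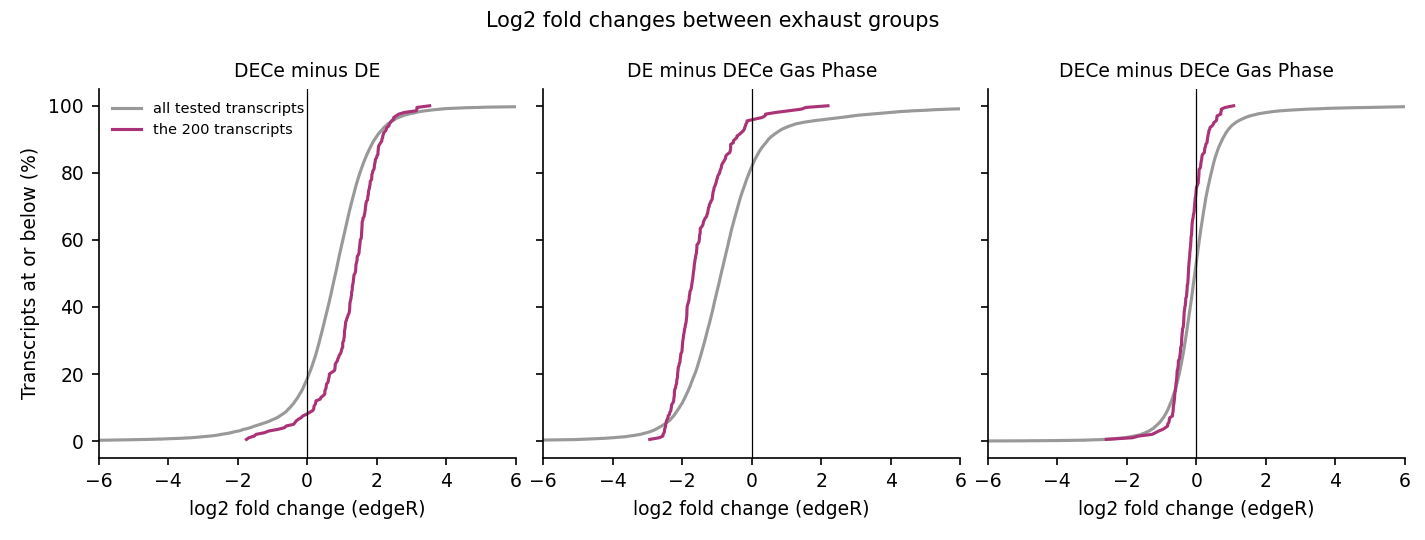
Cumulative share of transcripts (vertical axis, %) at or below a log2 fold change (horizontal axis, edgeR) in 3 comparisons between exhaust groups, for all 27219 tested transcripts and for the 200 members. The members' medians are 1.38 for DECe minus DE, -1.68 for DE minus DECe Gas Phase and -0.22 for DECe minus DECe Gas Phase.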

How the data were processed

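Per the labels, messenger RNA was purified from needles, made into libraries with the PrepX kit and sequenced on an Illumina instrument; CASAVA 1.8.2 is named in the submitters' processing notes. For the aligner, the counting method, its use of strand and the origin of the transcript set, the entry is: not given in the sources used here. The deposited counts are whole-number read counts per transcript, with no normalization. The deposited RPKM values were used only for transcript length, computed from count and RPKM at 10 RPKM or more. The 1% limit was taken over each library's total count. The members, the lists and the division at 1000000 counts were chosen with earlier results of these data known. Named members are the 10 highest in air, the 3 highest per kilobase, up to 4 called members with the largest change per comparison (with no call, the 3 with the smallest p), and the extremes of exhaust-to-air ratio, variation, length and zeros; other names were chosen after their values were seen.

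Tests used edgeR 4.0.16 (R 4.3.3), quasi-likelihood with 4 groups and 26 libraries, on transcripts kept by a minimum count of 10. Library size was the count left by the rule, and p-values were adjusted by Benjamini-Hochberg. The test returns no standard error. Each SE printed is the absolute log2 fold change divided by the square root of the test's F statistic. DESeq2 1.42.0 and limma 3.58.1 were alternatives. Each library is 1 labelled sample. The counts left by the rule limit the precision in narrow libraries, and floors cover counting error only.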

Additional observations from a re-analysis of the deposited data

Results flagged for a closer look

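For each member and group, a library was singled out when its gap to the nearest other library took an unusually large part of the group's range. Chance alone singles out some groups in this way, and 33 of 200 members were singled out in Air Control, 47 in DE, 15 in DECe and 26 in DECe Gas Phase.

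In Air Control, replicate 11 was far above its group for 16 members, psme_t128974 among them, and replicate 14 was far above for 10 and far below for 1. Replicate 3 was far above for 1 and far below for 1, and replicates 5 and 8 were far above for 2 members each. In DE, replicate 5 was far above for 37 members, replicate 12 for 9 and replicate 8 for 1. That replicate 5 also stood apart in its total of 28990156 counts and in the 60.1% of them left by the rule.

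In DECe, replicate 13 was far above its group for 7 members, replicate 15 for 5, replicate 5 for 2 and replicate 2 for 1. In DECe Gas Phase, replicate 4 was far above for 13 members and far below for 2. Replicates 2 and 3 were far above for 4 members each, and replicates 5, 7 and 10 for 1 each. The part of depth in these values was not tested.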

How the results depend on the processing

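The number of members called depended on the processing, and the causes were not tested. For DECe minus DE (19 called) it was 6 with TMM factors, 12 with DESeq2's size factors, 3 with library totals, 1 with no filter, 42 at a mean of at least 50 counts, 34 with DESeq2 (17 higher, 17 lower), 186 with limma-voom and 81 after thinning. Of all tested transcripts 0.206%, 0.834%, 0.525%, 0.0384%, 3.46%, 3.34%, 50.6% and 21.1% were called in these fits. It was 0 with the narrow libraries alone and 0 with only the 2 groups compared, where 0.0133% and 0% of all tested transcripts were called. For DE minus DECe Gas Phase (52 called) the counts in the same order were 31, 19, 0, 0, 90, 52 with DESeq2 (16 higher, 36 lower), 183 and 119, then 0 and 0. Of all tested transcripts 1.22%, 1.82%, 0.915%, 0.0267%, 6.92%, 5.93%, 45.3% and 36.4% were called in the first 8, and 0.239% and 0.336% in the last 2. With the broad libraries alone DE had 1 library, and the members' median log2 fold changes were 0.35 and -0.48 in these 2 comparisons. Alternatives chosen after seeing the data gave 38 and 86 with edgeR's newer dispersion setting, where 0.698% and 2.3% of all tested transcripts were called. Scaling to the members' own counts gave 7 (6 higher, 1 lower) and 7 (5 higher, 2 lower), against 0.25% and 0.749% of all tested transcripts. Without the 2 libraries led by psme_t000146 there were 13 (all higher) and 51 (4 higher, 47 lower), against 0.54% and 1.27%. Leaving out 1 library gave 0 to 163 and 0 to 167. With the replicate number as a block the counts were 0 and 1, against 0.72% and 1.84% of all tested transcripts. Of 18 same-number pairs, 4 correlated above 0.1. The lowest value, -0.62, was between the broad DE replicate 5 and the narrow DECe replicate 5. The highest, 0.398, was between the narrow DECe and DECe Gas Phase replicates 5. Library class enters these correlations, so they cannot decide whether the numbers pair the libraries. DECe minus DECe Gas Phase stayed at 0 in all 28 alternatives, and psme_t000966 there had a log2 fold change of 0.073 with the broad libraries alone. The median log2 ratios to air also depended on the processing. Over 7 alternatives the ratio ran from -3.10 to -0.71 in DE and from -0.75 to -0.10 in DECe. That of DECe Gas Phase was -0.64 with library totals and -0.27 to -0.10 in the other 6. All of these medians stayed negative. The numbers of members with a mean below air moved between these alternatives too. Other rankings of the air libraries kept at least 164 of the 200 members.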
